A study of Homo sapiens with 3 samples.

Results

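The genes described here are 8 components of the NLRP1 inflammasome and of the pore that follows it: the sensor NLRP1, the adaptor PYCARD (also known as ASC), the caspases CASP1, CASP4 and CASP8, the cytokine IL18 and the gasdermins GSDMD and DFNA5 (now named GSDME). They were selected by gene symbol from the deposited table of 24424 genes, and all 8 were found there. The set was chosen from earlier results of the same libraries, in which the level of NLRP1 stood out, so the values below describe these libraries and no test is attached to them. A375SM is a metastatic derivative of the human melanoma line A375, and its messenger RNA was sequenced from 3 populations with 1 library each. One population carried a short hairpin RNA against PRAME (shPRAME), another a hairpin against the deubiquitinase BAP1 (shBAP1), and the control is labelled shEmpty. All 3 received a lentiviral vector with a green fluorescent reporter and were kept as stable reporter-positive populations. The labels give the control both as a non-targeting hairpin and as wild type, and its name is that of an empty vector. Each target was lowered in a single population, so what a hairpin does to other genes and what the loss of its target does cannot be told apart.

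Inflammasomes are protein complexes that assemble in the cytosol when a sensor detects damage or microbial activity. NLRP1 is held in check by the dipeptidyl peptidases DPP8 and DPP9; when its fragment is released, it recruits PYCARD, which gathers caspase-1 into an active complex. Caspase-1 matures the cytokines interleukin 1 beta and interleukin 18 and cuts gasdermin D, whose released part forms pores in the plasma membrane and leads to the lytic death called pyroptosis. Caspase-4 senses bacterial lipopolysaccharide and cuts gasdermin D without the complex, while caspase-8 starts death receptor apoptosis and can also cut gasdermin D. DFNA5 is a further pore former that can turn apoptosis into lytic death. In skin, NLRP1 is known mainly as a keratinocyte sensor.

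Entries of the RefSeq promoter table (GRCh38.p14) were used for PYCARD, CASP4, CASP8 and DFNA5. The stretches of 250 bases before the listed start sites of 3 of them are shown. They set the adaptor, which had almost no reads in any library, beside a caspase and a gasdermin that were expressed in every library. A window for GSDMD, the gasdermin with more counts than DFNA5 in each library, is not reported here. The stretches are written 5′ to 3′ on the gene's strand with each CpG dinucleotide in capitals. These windows lie on the minus strand at chr16:31202761-31203010 (PYCARD), chr11:104968575-104968824 (CASP4) and chr7:24757465-24757714 (DFNA5).
PYCARD: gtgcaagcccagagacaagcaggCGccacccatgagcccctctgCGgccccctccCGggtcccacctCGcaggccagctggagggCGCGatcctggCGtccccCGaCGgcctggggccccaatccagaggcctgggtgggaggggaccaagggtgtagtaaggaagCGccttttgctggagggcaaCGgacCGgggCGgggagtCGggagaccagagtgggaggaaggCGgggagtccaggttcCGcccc
CASP4: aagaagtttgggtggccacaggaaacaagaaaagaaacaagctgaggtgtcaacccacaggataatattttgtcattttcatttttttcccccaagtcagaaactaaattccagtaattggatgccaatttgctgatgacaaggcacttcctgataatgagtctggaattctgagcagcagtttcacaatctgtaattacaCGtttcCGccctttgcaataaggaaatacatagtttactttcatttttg
DFNA5: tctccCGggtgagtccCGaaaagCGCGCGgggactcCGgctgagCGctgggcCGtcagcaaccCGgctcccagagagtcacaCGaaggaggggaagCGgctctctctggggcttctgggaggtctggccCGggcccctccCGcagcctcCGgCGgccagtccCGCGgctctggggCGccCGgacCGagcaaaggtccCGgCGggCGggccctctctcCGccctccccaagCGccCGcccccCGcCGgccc
The PYCARD window held 16 CpG dinucleotides, and 41% of all 35116 promoter windows of that length held at least as many. The CASP4 window held 2, which 85.3% of windows reached, and the DFNA5 window 28, which 15.9% reached. The 3 CASP8 windows, not printed, held 6, 5 and 5. DNA methylation was not measured, and any tie of CpG number to expression was not tested.

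The libraries held 19430130 counts (shEmpty), 14181829 (shBAP1) and 18456328 (shPRAME). Levels are given as CPM, counts per 1000000 of the TMM-adjusted library size. A library with no count allows up to 3 counts of a gene, which is 0.160 CPM in shEmpty, 0.202 CPM in shBAP1 and 0.164 CPM in shPRAME; this limit is called the floor below. All intervals are 95% counting intervals and, like the floor, cover counting error only. The hairpins' own targets stood at 32.9% of the control for PRAME in shPRAME and 35.2% for BAP1 in shBAP1.

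NLRP1 was close to undetected in the control and was a moderately expressed gene in both hairpin populations. It had 4 counts in shEmpty (0.213 CPM, 0.0582 to 0.547), 695 counts in shBAP1 (46.8 CPM, 43.4 to 50.4) and 504 counts in shPRAME (27.6 CPM, 25.2 to 30.1). Both hairpin libraries lay far above the control, and their intervals did not overlap with it or with each other. The ratio to shEmpty was 219-fold in shBAP1 (85.3 to 807) and 129-fold in shPRAME (50.1 to 476), both wide because of the 4 control counts. Both ratios share the single control library, so they are not independent of each other. Ordered by the interval bound nearest to no change, NLRP1 was the 7th of 661 genes called higher, as defined below, in shBAP1 and the 15th of 1225 in shPRAME. The set was chosen because NLRP1 stood out in these libraries, and NLRP1 passed the count minimum only through the hairpin libraries. Nothing is therefore read from these ranks. In these bulk libraries more cells with NLRP1 and more NLRP1 messenger per cell cannot be told apart. None of the 6606 distinct 100-base stretches of its coding transcripts in GENCODE release 29 occurs in a transcript of another gene, on either strand. The chart of levels by gene shows all 8 members on one axis.

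The adaptor, the effector protease and the cytokine that complete the classical pathway were at or near the floor. PYCARD had 2 counts in shEmpty (0.107 CPM, up to 0.386) and no count in shBAP1 or shPRAME. No library therefore held measurable PYCARD, and no fold was computed. A PYCARD antisense gene, PYCARD-AS1, covers 57.7% of the 100-base stretches of PYCARD on the opposite strand; it had 7 counts in shEmpty, 3 in shBAP1 and none in shPRAME. IL18 had 3 counts in shBAP1 (0.202 CPM, 0.0417 to 0.591) and none in shEmpty or shPRAME, which is also at the floor in every library.

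CASP1 was the exception among these low genes. It had 1 count in shEmpty (0.0534 CPM, 0.00135 to 0.297), 22 counts in shBAP1 (1.48 CPM, 0.929 to 2.24) and 3 counts in shPRAME (0.164 CPM, 0.0338 to 0.480). The shBAP1 interval lay above those of the other 2 libraries, which overlapped each other. The ratio of shBAP1 to shEmpty was 27.8 (4.49 to 1146.0) and that of shBAP1 to shPRAME 9.03 (2.71 to 47.1). Even so, CASP1 in shBAP1 was a low level. CARD16, a neighbouring gene that encodes a CARD-only decoy related to caspase-1, had 3, 35 and 8 counts in shEmpty, shBAP1 and shPRAME. CASP1 shares 1.52% of its 100-base stretches with CARD16, so a part of these reads could be assigned to either gene.

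The other caspases were well expressed in all 3 populations and differed by less than 2-fold from the control. CASP4, the lipopolysaccharide-sensing caspase, had 637 counts in shEmpty (34.0 CPM, 31.4 to 36.7), 801 in shBAP1 (54.0 CPM, 50.3 to 57.8) and 312 in shPRAME (17.1 CPM, 15.2 to 19.1). The 3 intervals did not overlap: shBAP1 was the highest and shPRAME the lowest. Its ratio to shEmpty was 1.59-fold higher in shBAP1 (1.43 to 1.76) and 1.99-fold lower in shPRAME (1.74 to 2.29), just short of the 2-fold limit used below. CASP8, the initiator caspase of death receptors, had 650 counts in shEmpty (34.7 CPM, 32.1 to 37.5), 829 in shBAP1 (55.8 CPM, 52.1 to 59.8) and 692 in shPRAME (37.8 CPM, 35.1 to 40.8). Only the shBAP1 value stood clear of the control, with a ratio of 1.61 (1.45 to 1.79). In shPRAME the ratio of CASP8 to the control was 1.09 (0.979 to 1.22), which counting error alone can give.

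Both pore-forming genes were expressed, and both were lowest in shBAP1. GSDMD, the main pore former of pyroptosis, had 1305 counts in shEmpty (69.6 CPM, 65.9 to 73.5), 788 in shBAP1 (53.1 CPM, 49.4 to 56.9) and 1866 in shPRAME (102 CPM, 97.5 to 107). The intervals did not overlap, and shPRAME was the highest. Its ratios to the control were 1.31-fold lower in shBAP1 (1.20 to 1.44) and 1.47-fold higher in shPRAME (1.36 to 1.57). DFNA5, the gasdermin tied to apoptosis, had 260 counts in shEmpty (13.9 CPM, 12.2 to 15.7), 100 in shBAP1 (6.74 CPM, 5.48 to 8.19) and 279 in shPRAME (15.3 CPM, 13.5 to 17.2). Here shBAP1 was clearly the lowest, at 2.06-fold below the control (1.63 to 2.62), and the other 2 libraries overlapped, with a ratio of 1.10 (0.925 to 1.31). The 2-fold call of DFNA5 ended with total-count scaling (log2 ratio -0.92) and with upper-quartile scaling (-0.97).

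Of the members that could be set against all genes, NLRP1 had by far the largest difference from shEmpty in both hairpin libraries. A gene was measured where its mean count over the 3 libraries was at least 50, and it was called where its scaled counts differed by at least 2-fold and the counting interval did not reach a ratio of 1. Of the 8 members 5 were measured, NLRP1 only through the 2 hairpin libraries, and PYCARD, CASP1 and IL18 were not. In shBAP1 against shEmpty, 1 of the 5 was called higher (NLRP1) and 1 lower (DFNA5), beside 14.1% of 11956 measured genes called in either direction, 5.53% higher and 8.56% lower. For shPRAME against shEmpty, 1 was called higher (NLRP1) and none lower, beside 19.3% of all genes, 10.2% higher and 9.08% lower. The median log2 ratio of the 5 measured members was 0.67 in shBAP1 and 0.14 in shPRAME, beside -0.03 and -0.06 over all measured genes. Since the members were chosen on these contrasts, nothing is read from their share. Nearest to the 2-fold limit, a log2 ratio of 1, lay DFNA5 at -1.04 inside it in shBAP1 and CASP4 at -0.99 outside it in shPRAME.

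**Figure D1:**
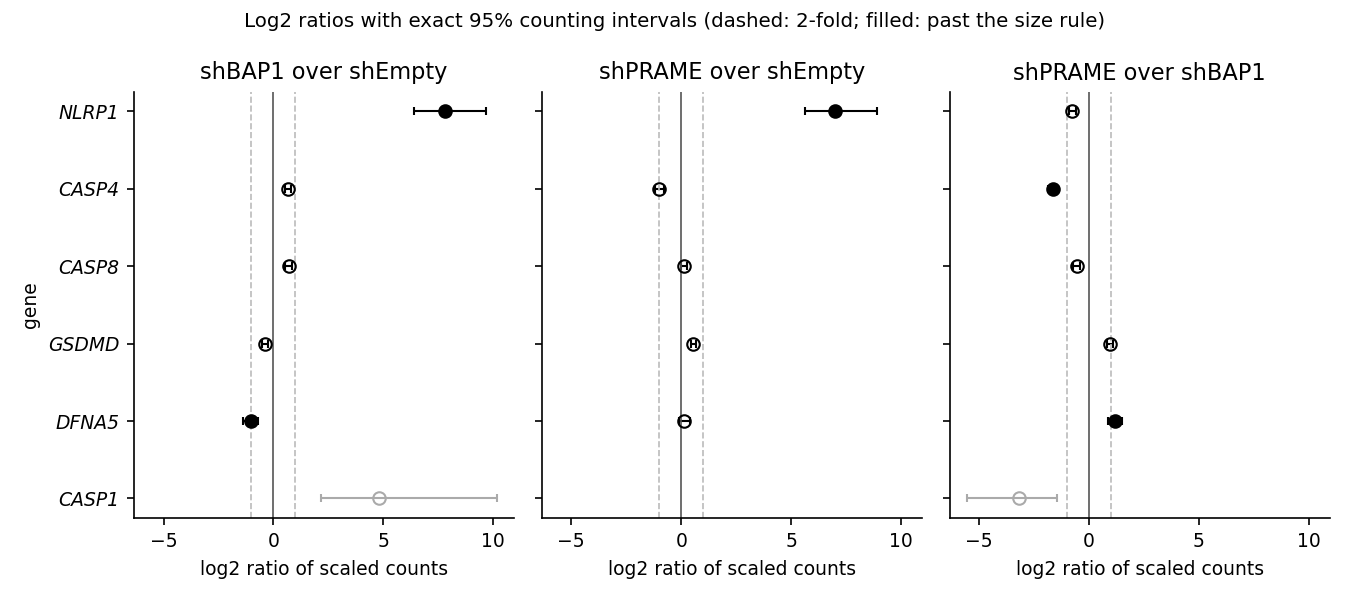
Log2 ratios of scaled counts for the 5 measured members and CASP1 (grey, under the count minimum) in each pair of libraries, with exact 95% counting intervals; filled points passed the size rule, dashed lines mark 2-fold, and CASP1 has no ratio for shPRAME over shEmpty because both counts were at or under the floor. NLRP1 lies at 7.78 and 7.01 against shEmpty, while CASP4 lies at 0.67 and -0.99.

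The 2 hairpin populations also differed from each other. In shPRAME against shBAP1, 2 members were called, CASP4 lower and DFNA5 higher, beside 25.1% of all measured genes, 14.2% higher and 10.9% lower. CASP4 was 3.16-fold lower in shPRAME than in shBAP1 (2.77 to 3.62) and DFNA5 2.27-fold higher (1.80 to 2.88). GSDMD was 1.92-fold higher in shPRAME (1.77 to 2.09) and NLRP1 1.70-fold lower (1.51 to 1.91), both within the 2-fold limit. CASP8 was 1.48-fold lower in shPRAME (1.33 to 1.63). This comparison shares its libraries with those against shEmpty.

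Some differences can be read without any scaling, as the ratio of 2 genes' counts inside a library; the pairs were picked after their values were seen. The counts of CASP4 relative to its substrate GSDMD were 0.488 in shEmpty (0.443 to 0.537), 1.02 in shBAP1 (0.920 to 1.12) and 0.167 in shPRAME (0.148 to 0.189). No 2 of these intervals overlapped, so the balance of protease to pore-forming messenger was highest in shBAP1 and lowest in shPRAME. CASP8 relative to CASP4 was 1.02 in shEmpty (0.913 to 1.14) and 1.03 in shBAP1 (0.938 to 1.14), and 2.22 in shPRAME (1.94 to 2.54).

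Per kilobase of exon, the members kept a spread of several orders of magnitude. The lengths are unions of GENCODE release 29 exons, which overstate the length of genes with long alternative transcripts, so orders of close neighbours are uncertain. In shEmpty GSDMD led with 26.2 CPM per kilobase (24.8 to 27.6), followed by CASP4 with 15.0 (13.9 to 16.3), CASP8 with 8.81 (8.15 to 9.52) and DFNA5 with 3.90 (3.44 to 4.41), and the intervals of these neighbours did not overlap. PYCARD, NLRP1, CASP1 and IL18 followed in that library with at most 0.108 CPM per kilobase and could not be ordered. In shBAP1 the order was CASP4 at 23.9 (22.2 to 25.6), GSDMD at 20.0 (18.6 to 21.4), CASP8 at 14.2 (13.2 to 15.2) and NLRP1 at 7.64 (7.08 to 8.23), ahead of DFNA5 at 1.90 (1.54 to 2.31). In shPRAME, GSDMD was at 38.4 (36.6 to 40.1), CASP8 at 9.62 (8.91 to 10.4), CASP4 at 7.55 (6.74 to 8.44) and NLRP1 at 4.50 CPM per kilobase (4.11 to 4.91), which overlapped with DFNA5 at 4.29 (3.80 to 4.83). NLRP1 therefore stood behind GSDMD, CASP4 and CASP8 in both hairpin populations, level with DFNA5 in shPRAME.

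Around these members, 7 lists of 113 further genes of inflammasome signalling, cell death and the interferon response held 68 measured genes. Of these, 2 were called higher and 4 lower in shBAP1, and 3 higher and 6 lower in shPRAME, with median log2 ratios of 0.08 and 0.03. Both shares, 8.82% and 13.2%, were under those of all measured genes given above.

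Among the other sensors, 7 of 17 genes were measured. CARD8, which shares with NLRP1 the auto-processed FIIND and CARD domains and the control by DPP8 and DPP9, was called higher in shBAP1, with 207 counts in shEmpty and 416 in shBAP1 (2.54-fold, 2.14 to 3.01). In shPRAME it had 380 counts and a ratio of 1.88 (1.58 to 2.24). No other sensor was called against shEmpty. The median log2 ratio of the 7 was 0.15 in shBAP1 and 0.65 in shPRAME, where 3 sensors lay close under the limit: with upper-quartile scaling NLRC5 (1.08), NAIP (1.06) and CARD8 (1.00) were called higher. NLRC5 was also called with the other scalings tried, and NAIP with total-count scaling.

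Of 21 regulators 16 were measured, and 4 were called against shEmpty. TXN, which encodes thioredoxin, a binding partner that restrains NLRP1, was lower in both hairpin libraries: it had 2897 counts in shEmpty, 564 in shBAP1 (4.07-fold lower, 3.72 to 4.46) and 1366 in shPRAME (2.07-fold lower, 1.94 to 2.21). The call of TXN in shPRAME ended with upper-quartile scaling (log2 ratio -0.96). TXNIP, the thioredoxin-interacting protein, was higher in both, at 2.33-fold in shBAP1 (1.96 to 2.77) and 3.51-fold in shPRAME (3 to 4.11). BCL2, an antiapoptotic protein also known to bind NLRP1, went from 286 counts in shEmpty to 10 in shPRAME, and had a ratio of 1.43-fold downward in shBAP1 (1.17 to 1.74). The remaining call was MAPK11, a p38 kinase named after its values were seen, at 2.79-fold lower in shBAP1 (2.28 to 3.44). DPP8 and DPP9 were not called in either comparison with shEmpty.

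On the executioner side, 11 caspases and death-domain partners were measured. CASP9, the initiator caspase of the mitochondrial pathway, was called 2.18-fold higher in shPRAME (1.83 to 2.59), and no gene of the list was called in shBAP1. Among 8 measured genes of other gasdermins and membrane rupture or repair, VPS4A, an ATPase of the membrane-repairing ESCRT machinery, was 2.57-fold lower in shBAP1 (2.37 to 2.80). Its paralog VPS4B was 2.05-fold lower in shPRAME (1.88 to 2.24), a call that ended with total-count scaling and with upper-quartile scaling (log2 ratio -0.95). The other gasdermins GSDMA, GSDMB and GSDMC and the related DFNB59 were all under the count minimum. GSDMA and GSDMC had at most 1 count in any library. GSDMB, named after its values were seen, had 22 counts in shEmpty, 11 in shBAP1 and 56 in shPRAME. Its ratio in shPRAME was 2.61-fold above shEmpty (1.57 to 4.49). Of 8 measured interleukin-1 family genes, IL1R1, the interleukin 1 receptor, was called 3.10-fold lower in shBAP1 (2.46 to 3.94) and none in shPRAME. None of 5 measured necroptosis genes was called, and RIPK3 and ZBP1 had no count in any library.

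Interferon induces several members, CASP1, CASP4 and GSDMD among them, so its response genes were set beside them. Of 13 measured genes of that list none was called in shBAP1, where the median log2 ratio was -0.05, with 5 ratios above 0 and 8 below. OAS3 lay just short of the limit there, at 1.97-fold lower (1.76 to 2.20). In shPRAME, GBP2 was 2.07-fold higher (1.80 to 2.39), OAS3 3.40-fold lower (3 to 3.86) and IFIT3 2.25-fold lower (1.81 to 2.80), with a median of 0.16. With upper-quartile scaling IRF9 (1.04) and IFNGR1 (1.00), the interferon gamma receptor chain, were called higher there too. The summed level of all 20 genes was 537 CPM in shEmpty, 480 CPM in shBAP1 and 532 CPM in shPRAME. The part of interferon signalling in the members' levels was not tested.

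**Figure D2:**
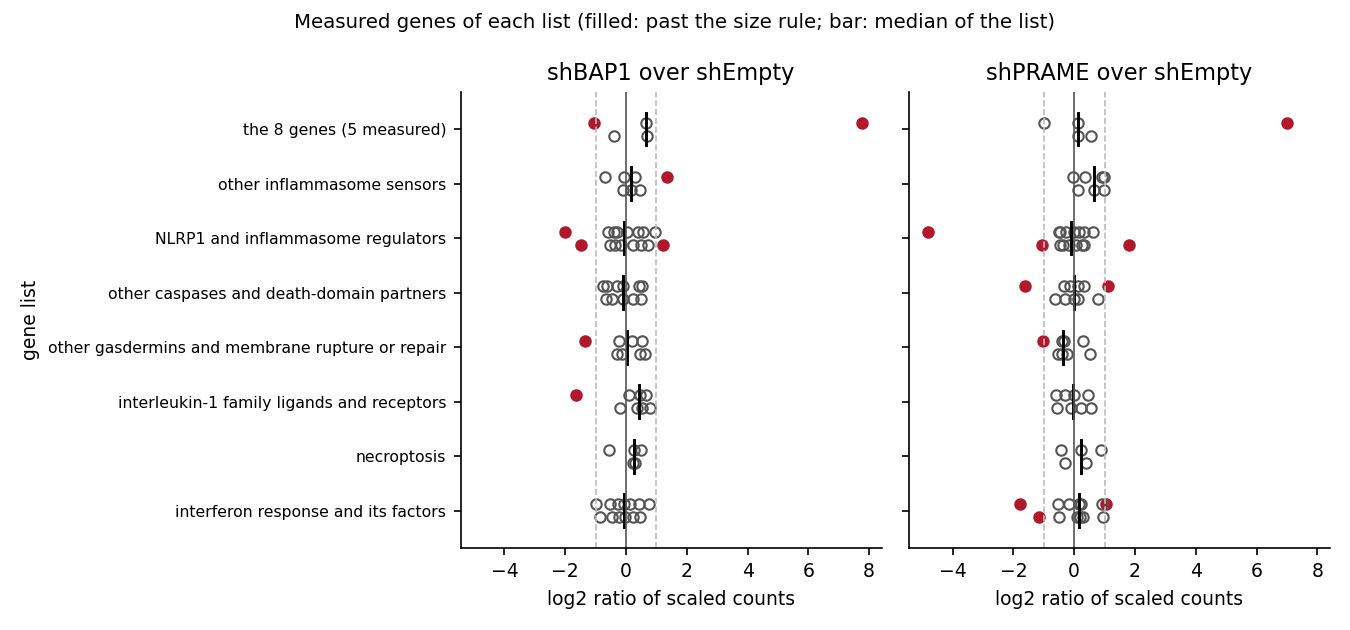
Log2 ratios of scaled counts of every measured gene in the set and in 7 lists of related genes, for shBAP1 (left) and shPRAME (right) over shEmpty; each circle is a gene, filled where it passed the size rule, with a bar at the list's median and dashed lines at 2-fold. NLRP1 lies at 7.78 and 7.01, and the list medians lie between -0.37 and 0.67.

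The genes next to NLRP1 on chromosome 17 were compared, in RefSeq order among genes of the deposited table. DERL2 and MIS12, on one side, had 39.2 and 36.5 CPM in shEmpty and were not called in either comparison with it. LOC728392, the gene between MIS12 and NLRP1, was called higher in both (log2 ratios of 2.23 in shBAP1 and 3.22 in shPRAME). It had 11 counts in shEmpty, 41 in shBAP1 and 100 in shPRAME, and passed the count minimum only through the shPRAME library. Any tie of its calls to those of NLRP1 was not tested. The annotated spans of LOC728392 and NLRP1 do not overlap. On the other side the noncoding gene LOC339166 had 8 counts in shEmpty, none in shBAP1 and 79 in shPRAME, and WSCD1 and AIPL1 had at most 7 and 2. Thus LOC728392 was above the control in both hairpin libraries, while LOC339166, which was under the count minimum, was above it in shPRAME (log2 ratio 3.34) and had no count in shBAP1.

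Near CASP4 and CASP1 on chromosome 11, the levels differed from gene to gene. CASP5 and CARD18 had no count in any library, and the caspase-12 pseudogene CASP12 had at most 4. PDGFD, a growth factor gene beside the cluster, had 16.1 CPM in shEmpty, 17.1 CPM in shBAP1 and 30.4 CPM in shPRAME and was not called, although upper-quartile scaling brought its log2 ratio in shPRAME to 1.01. In shPRAME CASP4 therefore lay below the control where PDGFD lay above it, with log2 ratios of -0.99 and 0.92.

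**Figure D3:**
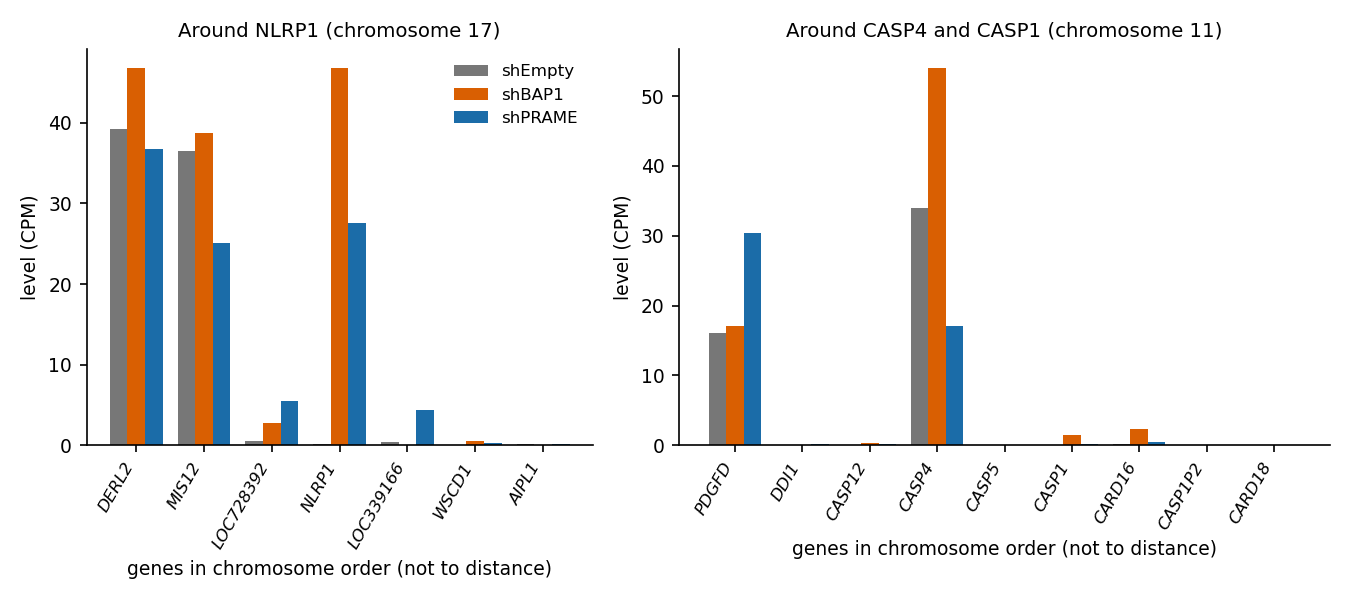
Level in CPM (linear axis from 0) in shEmpty (grey), shBAP1 (orange) and shPRAME (blue) for genes in chromosome order around NLRP1 (left) and around CASP4 and CASP1 (right), 1 library each; positions are not to scale. NLRP1 reaches 46.8 and 27.6 CPM in the hairpin libraries, beside 2.76 and 5.47 CPM for LOC728392.

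Genes with the pattern most like each member were taken by the distance between their pairs of log2 ratios, shBAP1 and shPRAME each over shEmpty, which rest on 3 libraries and share the control. Closest to NLRP1 were the noncoding RNA LINC01287 (4, 687 and 469 counts in shEmpty, shBAP1 and shPRAME, at a distance of 0.105), FAM133A (4, 647 and 424 counts, 0.270) and the phospholipid scramblase family gene PLSCR4 (1, 131 and 144 counts, 0.451). MYOZ2, a muscle Z-disc protein, and NCALD, a neuronal calcium sensor, followed at distances of 1.18 and 1.33. These genes were picked for having the pattern of NLRP1. Like NLRP1, they passed the count minimum only through the hairpin libraries, so nothing is read from their sharing it. For CASP4 the nearest were RASSF4 and FAM136A, at 0.021 and 0.034, and for CASP8 CRIPT and TPTE, at 0.013 and 0.016. GNB2 and CPEB3 were nearest to GSDMD (0.008 and 0.011), and TMED10 and ZNF532 to DFNA5 (0.037 and 0.053).

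Markers of cells known for NLRP1 or CASP1 were mostly scarce, apart from CD68, KRT10 and, outside shBAP1, DSP. Of 12 markers of myeloid and lymphoid cells, TYROBP and CD3E had no count in any library, and the summed level without CD68, a lysosomal protein also made outside these cells, was 4.11 CPM in shEmpty, 4.11 CPM in shBAP1 and 8.37 CPM in shPRAME. With CD68 the sums were 53.2, 65.8 and 153 CPM. In shPRAME CD68 was called 2.94-fold higher than in shEmpty (2.73 to 3.18), and LYZ, the lysozyme gene, had 3 counts in shEmpty, 15 in shBAP1 and 34 in shPRAME. Of 11 keratinocyte markers, KRT1 and IVL had no count in any library and KRT5, KRT14 and TP63 had at most 4. Their summed level was 52.9 CPM in shEmpty, 55.2 CPM in shBAP1 and 64.8 CPM in shPRAME, nearly all of it from KRT10 and DSP. These went different ways: DSP, the desmosomal protein desmoplakin, was 33.3-fold lower in shBAP1 than in shEmpty (16.7 to 77.7) and 2.04-fold higher in shPRAME (1.79 to 2.33). KRT10 was called in neither, with 632 counts in shEmpty, 789 in shBAP1 (1.58-fold the control, 1.42 to 1.75) and 494 in shPRAME. The part of other cell types in the level of NLRP1 was not tested. Of 9 melanocytic markers, MITF, SOX10, SOX9 and S100B were abundant in every library, with at least 2088, 5442, 2011 and 790 counts. MITF stood at 310 CPM in shEmpty, 239 CPM in shBAP1 and 114 CPM in shPRAME. PMEL and MLANA were scarce, with 6 and 3 counts in shEmpty, 34 and 19 in shBAP1, and 8 and 7 in shPRAME. TYR, TYRP1 and DCT differed widely between libraries, with 573, 1037 and 1668 counts in shBAP1 against 4, 0 and 192 in shEmpty. In shPRAME, where NLRP1 was also high, these 3 had 0, 1 and 6 counts, so high NLRP1 occurred both with and without the pigment genes.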

How the data were processed

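RNA-seq libraries of 3 A375SM populations (shEmpty, shBAP1, shPRAME; 1 each, assigned by their titles) were compared. The values deposited by the authors are whole-number read counts per gene symbol, not normalized. The tools named in the submitters' processing notes are FastQC, TopHat, Cufflinks and edgeR, and the build is hg19 (GRCh37). How reads were counted, with which annotation and whether by strand, is not given in the sources used here.

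Counts were scaled with TMM (edgeR 4.0.16, R 4.3.3). Ratios carry no pseudocount and have exact conditional binomial 95% intervals (scipy 1.17.1); levels have exact Poisson intervals. A mean count of 50 or more was needed for a call, which required 2-fold and an interval that did not reach a ratio of 1. With 1 library per group no p-value was computed and no difference has a replicate check. A count of 0 was set to 3 counts, and no fold is given where both counts were at or under 3.

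The members and the gene lists were chosen with earlier results of these data known. Named genes were all members, up to 3 called genes per list, the nearest patterns (5 for NLRP1, 2 for each other measured member) and 3 neighbours on each side; others are said to be named after their values were seen. Some genes under this rule are not reported here. Symbols were matched to RefSeq (GRCh38.p14) and GENCODE release 29, used only for names, order, length, promoters and shared stretches, since the files use GRCh37. All 153 list genes had an exon length. The calling procedure was tested on simulated data with counting error only, which cannot show how calls vary between cultures. Alternatives were other scalings (total count, upper quartile, DESeq2 1.42.0), count minima, fold limits and a pseudocount of 1 CPM.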

Additional observations from a re-analysis of the deposited data

How the results depend on the processing

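NLRP1 was called higher in shBAP1 and in shPRAME against shEmpty under every scaling, count minimum and fold limit tried, although a pseudocount of 1 CPM took its log2 ratios from 7.78 to 5.30 and from 7.01 to 4.56. The call of DFNA5 in shBAP1 was the fragile one: with total-count or upper-quartile scaling 1 member was called there instead of 2, because these moved every log2 ratio by 0.12 and 0.07. No called ratio of a named gene changed sign. With other scalings CARD6 (log2 ratio 1.08 with total count) was also called in shBAP1. A fold limit of 1.5 called 4 members in shBAP1, 2 in shPRAME and 4 between the hairpin libraries, among 3645, 4903 and 5749 of all genes. A limit of 3 called 1 member in each of these comparisons, among 778, 991 and 1361 genes. Without a count minimum CASP1 joined the calls between shBAP1 and either other library (3 members each), and the calls over all genes were 3016 in shBAP1, 3774 in shPRAME and 4727 in the direct comparison. A minimum of 10 counts gave 2543 in shBAP1 against the main 1685. Depth limits PYCARD, IL18 and CASP1, whose differences under about 0.2 CPM were not detectable, and 4 control counts set the width of the NLRP1 ratios. No paired analysis was possible because each group has 1 library.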

Other observations

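Some interleukin-1 family genes under the count minimum had more reads in shPRAME than in shEmpty. The genes below were named after their values were seen. Of 13 family genes under the minimum 9 had over 3 counts in shPRAME or shEmpty, and 6 of these would pass the size rule as higher in shPRAME if no minimum were set, with none lower. Over all 4280 genes under the minimum with such a count, 25.1% would pass as higher and 9.04% as lower. Of the 6, IL1A, IL1B, IL36B, IL36G and IL36RN lie on chromosome 2 and IL33 on chromosome 9. IL36G and IL33 had over 3 counts only in shPRAME. Nothing is therefore read from the share. IL18R1, a receptor chain for interleukin 18, had 5 counts in shEmpty, 0 in shBAP1 and 1 in shPRAME, and IL36A and IL18RAP had 0 in every library. IL1B, a caspase-1 substrate, had 6 counts in shEmpty, 2 in shBAP1 and 58 in shPRAME (9.91-fold higher in shPRAME than in shEmpty, 4.29 to 28.1). IL1A had 12, 5 and 90 counts in the same order (7.69-fold, 4.19 to 15.4). IL36RN, the antagonist of the interleukin 36 receptor, had 5, 0 and 113 counts (23.2-fold, 9.64 to 72.7), and IL33, an alarmin that caspases can inactivate, had 1, 0 and 25 (25.6-fold, 4.19 to 1051.9). The library with these cytokine reads had 0 counts of PYCARD and 3 of CASP1.

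NLRP10, a sensor-family member without the usual leucine-rich repeats, had 2 counts in shEmpty, 2 in shBAP1 and 32 in shPRAME (16.4-fold higher in shPRAME than in shEmpty, 4.18 to 141). It was also named after its values were seen.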
